A study of Homo sapiens with 3 samples.

Results

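Glutathione peroxidases (GPX) and glutathione transferases (GST, and the membrane-bound MGST) were followed in Cal-33 cells, an established line of human tongue squamous cell carcinoma. The members were chosen by gene symbol, and the symbols GPX1, GPX2, GPX3, GPX8, GSTP1, GSTO1, GSTK1, GSTM3, MGST1 and MGST2 gave 10 rows of the 28890 genes listed. The cells, labelled wild type in every group, received siRNA by transfection and were harvested 72 h later, with the siRNA a control (siControl), directed at p53 (sip53) or directed at BACH1 (siBACH1). Each group had 1 library, so differences could not be set against a spread between replicates, no test was possible, and every value describes 3 libraries. An siRNA lowers a transcript without removing its gene, and transfection is common to all groups, so its own effect is not measured.

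Glutathione peroxidases reduce hydrogen peroxide and organic hydroperoxides to water and alcohols, using glutathione as the electron donor. Glutathione transferases join glutathione to electrophilic compounds, which can then be exported from the cell, and some of them also have peroxidase or isomerase activity. Several genes of both families carry antioxidant response elements, DNA sites at which the activator NRF2 and the repressor BACH1 compete for binding with small MAF partners. p53 is a transcription factor that responds to DNA damage and also influences genes of redox metabolism.

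The values are TPM (transcripts per 1000000), a unit corrected for transcript length, so levels of different genes can be set side by side. Depth is unknown because TPM keeps no read number. The number of genes at 1 TPM or more was 12113 to 12198 per library. BACH1 was at 15.2 TPM in siControl, 19.6 TPM in sip53 and 4.30 TPM in siBACH1, leaving 28.4% of the siControl level. The 10 squamous epithelial markers were all at 1 TPM or more in each library, with summed levels of 11765 TPM in siControl, 10829 TPM in sip53 and 7133 TPM in siBACH1. Of 7 fibroblast markers, 1 or 2 reached 1 TPM, and they summed to 4.18 to 5.15 TPM. The 8 immune and endothelial markers summed to 50.6 to 58.8 TPM, most of it the lysosomal protein CD68 and the cadherin CDH5. Mitochondrially encoded genes took 24.8% of the listed TPM in siControl, 29.2% in sip53 and 28.2% in siBACH1. The part of the squamous marker differences in the members' values was not tested, and in bulk RNA fewer cells of a type cannot be told apart from less RNA per cell. For the mitochondrial differences, the members' values were only recomputed without mitochondrially encoded and ribosomal protein genes together, as given in the last section.

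The codon of the catalytic residue sets GPX8 apart from the other peroxidase members at the DNA level. GENCODE 29 marks a selenocysteine codon, TGA, in GPX1, GPX2 and GPX3, whereas GPX8 has TGC, a cysteine codon, at the aligned position. The stretches around that codon are shown because they mark which members depend on selenium. They are read 5′ to 3′ on the coding strand with the codon in capitals, from GENCODE 29 transcripts on GRCh38.
GPX1: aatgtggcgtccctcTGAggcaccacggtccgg
GPX2: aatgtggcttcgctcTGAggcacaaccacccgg
GPX3: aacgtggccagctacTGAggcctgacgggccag
GPX8: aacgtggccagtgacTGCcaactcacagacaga
These lie at chr3:49358117-49358149 (minus strand, exon 1, codon 49), chr14:64942592-64942624 (minus strand, exon 1, codon 40), chr5:151025454-151025486 (plus strand, exon 2, codon 73) and chr5:55161009-55161041 (plus strand, exon 2, codon 79). Translated coding sequences of GPX1 and GPX2 shared 67.4% of 190 aligned residues, with selenocysteine read as cysteine, and each shared 35.2% to 45.5% with GPX3 or GPX8.

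The promoters were searched for the antioxidant response element core TGACNNNGC on both strands, because this is the kind of site at which BACH1 binds. RefSeq promoter windows on GRCh38.p14 were found for 9 of the 10 members. In the 250 bases before an annotated start, GPX2, GSTO1 and GSTP1 held the core, which is 3 of 9 members. The same core was present before a start in 13.2% of 27305 genes with a window. The form TGACTCAGC, a special case of the core with the same length and no free base, was found in GSTP1 alone among the members and in 0.568% of genes. With the 50 bases after the start added, MGST1 also held the core, at bases 31 to 39 of 1 of its starts, and the share of all genes was 16.1%. A match describes letters in a window and is no evidence of binding.
The windows that held a match follow on the gene's own strand, with matches to the core in capitals.
GPX2: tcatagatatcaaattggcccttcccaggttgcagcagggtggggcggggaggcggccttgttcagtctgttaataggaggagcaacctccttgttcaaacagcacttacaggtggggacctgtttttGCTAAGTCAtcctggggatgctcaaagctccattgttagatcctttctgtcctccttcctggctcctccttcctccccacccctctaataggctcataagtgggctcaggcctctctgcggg
GSTP1: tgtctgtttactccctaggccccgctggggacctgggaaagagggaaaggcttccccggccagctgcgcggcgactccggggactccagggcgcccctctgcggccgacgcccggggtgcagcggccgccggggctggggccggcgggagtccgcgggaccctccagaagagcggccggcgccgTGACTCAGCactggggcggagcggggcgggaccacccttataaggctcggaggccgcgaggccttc
GSTO1: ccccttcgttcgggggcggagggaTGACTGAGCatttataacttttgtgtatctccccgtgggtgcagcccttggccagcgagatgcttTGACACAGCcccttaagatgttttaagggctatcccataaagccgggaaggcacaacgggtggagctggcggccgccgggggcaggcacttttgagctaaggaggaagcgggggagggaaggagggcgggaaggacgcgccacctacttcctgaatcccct
The GPX2 window is chr14:64942746-64942995 (minus strand), and its match reads TGACTTAGC on the opposite strand, 122 to 114 bases before the start. The GSTP1 window is chr11:67583562-67583811 (plus strand), with the match 66 to 58 bases before the start. The GSTO1 window is chr10:104254642-104254891 (plus strand), with matches that begin 226 and 161 bases before the start. This window lies inside the annotated GSTO1 gene, which begins at 104254173, so the start it precedes is an internal one.

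**Figure D1:**
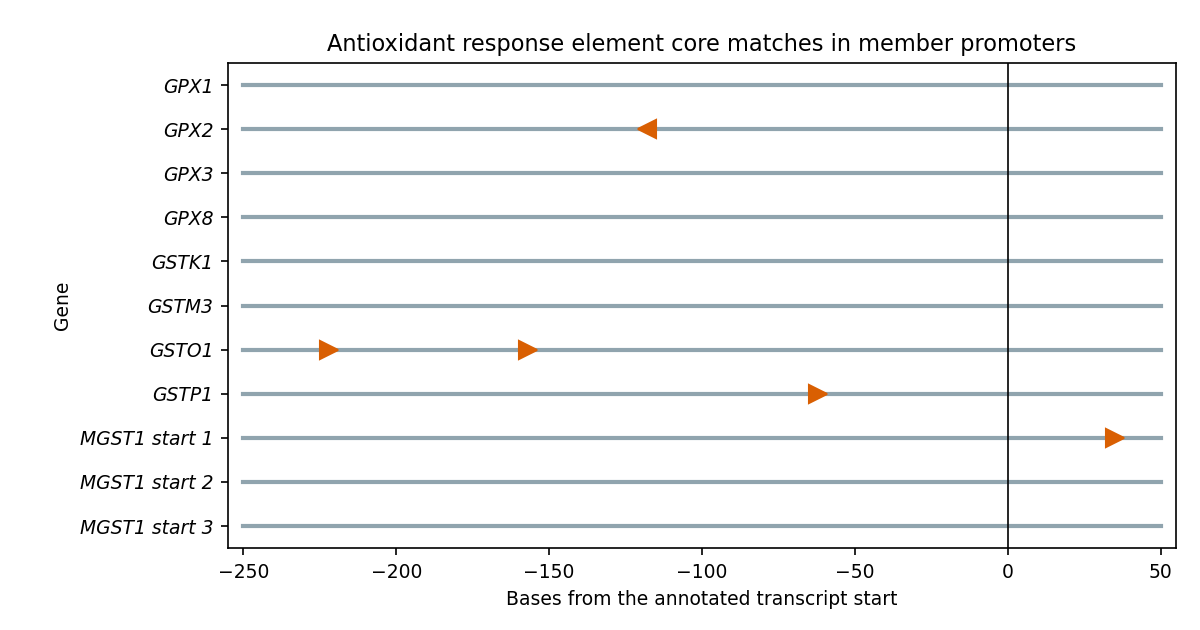
Positions of antioxidant response element core matches in the promoter windows of 9 members, in bases from the annotated transcript start (x axis), with a line per window. Triangles point along the strand of the match. Matches before the start are seen in GPX2, GSTO1 and GSTP1, and MGST1 has its match after the start.

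The members spanned a wide range of levels, and the order of the 7 most abundant was the same in all 3 libraries. GPX2 was highest, followed by GSTO1, GPX1, GSTK1, MGST2, GPX8 and GSTP1. GSTM3, MGST1 and GPX3 stayed under 1 TPM in every library. The members together summed to 591 TPM in siControl, 583 TPM in sip53 and 631 TPM in siBACH1, which was 0.0604%, 0.0595% and 0.0644% of the listed TPM. The larger sum in siBACH1 came with a larger GPX2 value, while the 4 soluble transferases summed to 211, 207 and 208 TPM.

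**Figure D2:**
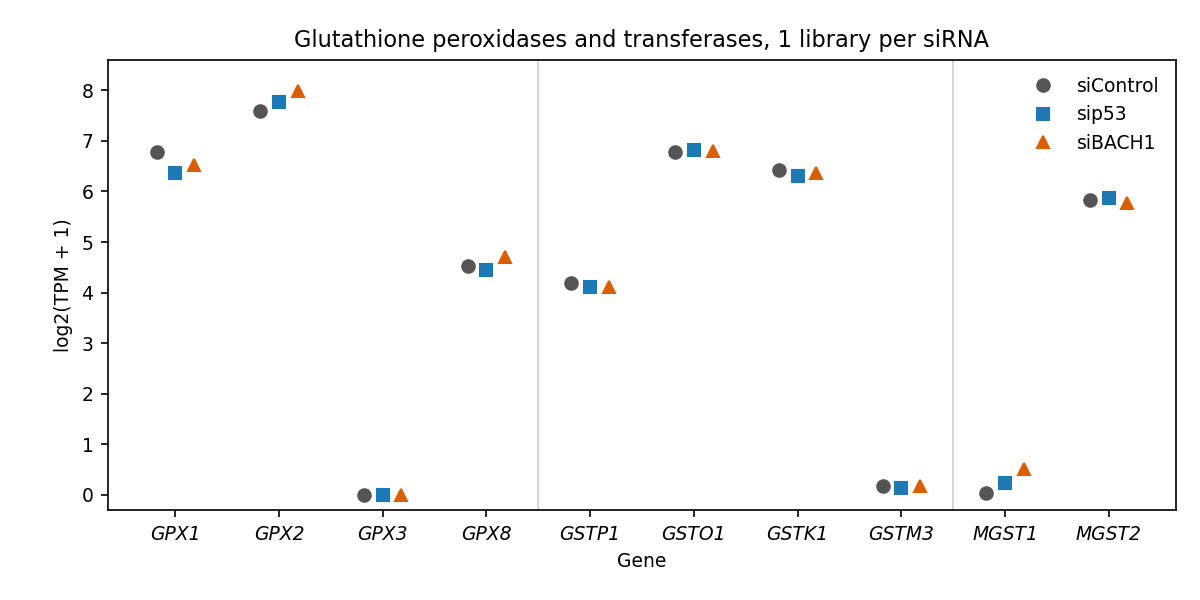
Level of each member as log2(TPM + 1) (y axis), with a point for each library: siControl (circle), sip53 (square) and siBACH1 (triangle). The 7 measured members lie between 16.2 and 253 TPM, and GPX3, GSTM3 and MGST1 lie under 1 TPM. Without replicates there are no error bars.

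GPX2, a cytosolic selenoenzyme best known from the epithelium of the gut and a described NRF2 target, was the most abundant member (chromosome 14, 64939158 to 64942745, GRCh38.p14). It was at 193 TPM in siControl, 216 TPM in sip53 and 253 TPM in siBACH1. Relative to siControl this was 131% in siBACH1 and 112% in sip53, so siControl was lowest and siBACH1 highest. Its level exceeded that of 95.02% of genes at 1 TPM or more in siControl, and of 96.6% in siBACH1. On the log2(TPM + 1) scale the differences from siControl were 0.39 in siBACH1 and 0.16 in sip53. Of all measured genes, 13.9% differed at least as much in siBACH1, and 48.4% in sip53.

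GPX1, the widely expressed selenoenzyme of the cytosol and mitochondria, was lower in both knockdown libraries (chromosome 3, 49357176 to 49358353). It was at 109 TPM in siControl, 81.7 TPM in sip53 and 91.3 TPM in siBACH1, or 74.9% and 83.7% of siControl. The log2 differences were -0.41 in sip53 and -0.25 in siBACH1, and 11.1% and 28.5% of measured genes differed at least as much. The pseudogene GPX1P1, to which reads could be assigned, was at 0.304, 0.408 and 0 TPM. Summed with GPX1 and GPX1P2 it gave 109, 82.1 and 91.3 TPM.

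GPX1 had the highest transcript GC content of the members, 63.1% averaged over its GENCODE 29 transcripts, above 93.3% of measured genes. Over all measured genes the log2 difference declined as GC content rose. Spearman's rho was -0.40 in sip53 and -0.22 in siBACH1, taken across genes that are no independent replicates of one another. After a correction for GC content and length over all measured genes, added after seeing the data, GPX1 was at -0.17 in sip53 and -0.10 in siBACH1. GPX2, with a GC content of 53.9%, was at 0.30 and 0.47 after the same correction.

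**Figure D3:**
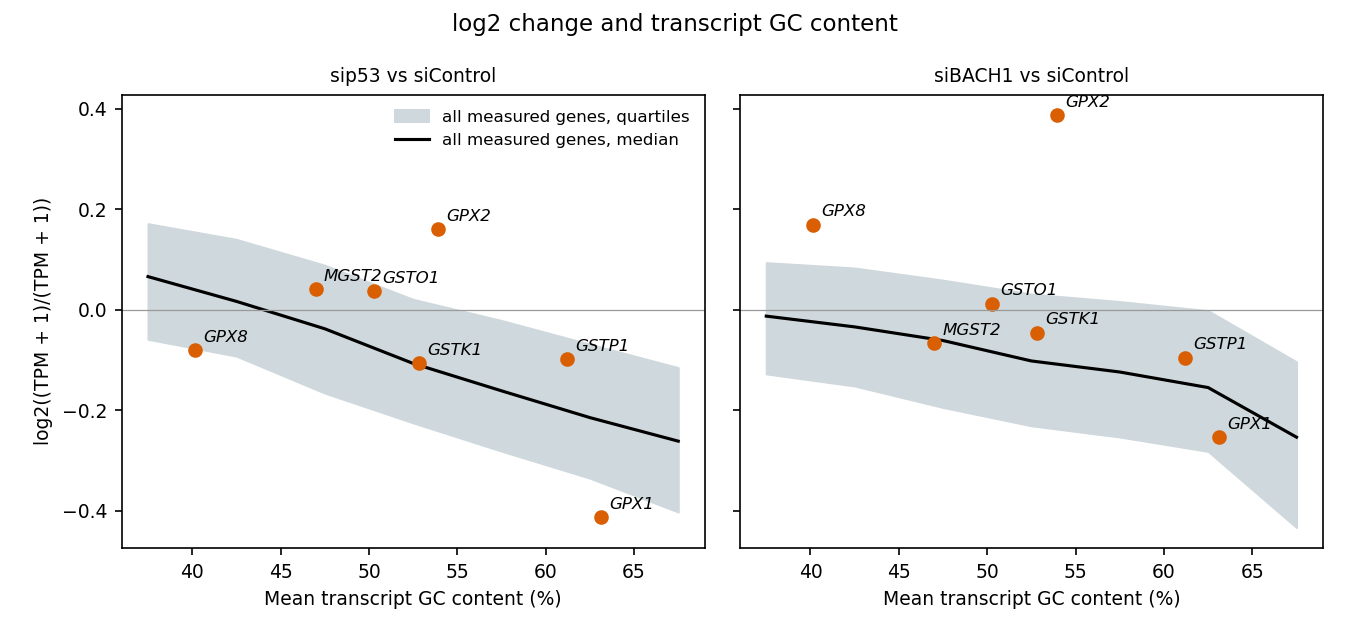
log2 difference from siControl (y axis) against mean transcript GC content in percent (x axis) for the 7 measured members (points), in sip53 (left) and siBACH1 (right). The line and band are the median and quartiles of all measured genes in bins of 5 percentage points. GPX1, at a GC content of 63.1%, lies below the band in sip53 and inside it in siBACH1, and GPX2 lies above the band in both.

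The proportion of GPX2 to GPX1 within a library does not depend on how libraries are scaled, and it was examined after the values were seen. There were 1.77 GPX2 transcripts per GPX1 transcript in siControl, 2.64 in sip53 and 2.77 in siBACH1. The change of this ratio of TPM was 0.58 on the log2 scale in sip53 and 0.65 in siBACH1. The difference between both genes' log2(TPM + 1) changes was 0.57 and 0.64, or 0.47 and 0.57 after the GC content and length correction. Both knockdown libraries were compared with the same control library, so a value peculiar to that library would enter both. GPX2 made up 22.7% of the summed GPX transcripts in siControl, 25.9% in sip53 and 29.5% in siBACH1. The largest part of that sum in every library was GPX4, which reduces lipid hydroperoxides in membranes, at 526, 513 and 487 TPM. The sum over all 8 listed GPX genes was 850, 831 and 856 TPM.

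GPX8, a membrane protein of the endoplasmic reticulum with the cysteine codon shown above, was at 22.0 TPM in siControl, 20.8 TPM in sip53 and 24.9 TPM in siBACH1 (chromosome 5, 55160171 to 55167297). Its log2 differences from siControl were -0.08 and 0.17. GPX8 had the lowest GC content of the members, 40.1%. GPX3, the peroxidase secreted into plasma, was listed at 0 in all 3 libraries (chromosome 5, 151020591 to 151028988), so no difference can be given for it. GPX5, GPX6 and GPX7 were also listed at 0 throughout.

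The soluble transferases were close to the control level in both knockdown libraries. GSTO1, an omega-class enzyme with thioltransferase and dehydroascorbate reductase activity, was at 109 TPM in siControl, 112 TPM in sip53 and 110.2 TPM in siBACH1 (chromosome 10, 104254173 to 104267455). GSTK1, a kappa-class enzyme of mitochondria and peroxisomes, was at 84.4, 78.3 and 81.7 TPM (chromosome 7, 143263441 to 143269115). GSTP1, the pi-class enzyme often abundant in carcinoma cells, was at 17.4, 16.2 and 16.2 TPM (chromosome 11, 67583812 to 67586653). The largest log2 difference from siControl among these enzymes was -0.11, for GSTK1 in sip53. Corrected for GC content and length, the sip53 values were 0.01 for GSTK1, 0.14 for GSTO1 and 0.13 for GSTP1.

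GSTP1 lay near the middle of the measured genes, above 47.4% of genes at 1 TPM or more in siControl. It supplied 4.13% of the summed TPM of 22 listed GST and MGST genes in siControl, while GSTO1 supplied 26.0%. The ratio of GSTO1 to GSTP1 was 6.29 in siControl, 6.94 in sip53 and 6.81 in siBACH1. The pseudogene GSTP1P1 was listed at 0 in all libraries. GSTP1 changed sign with the GC content and length correction, from -0.10 to 0.13 in sip53 and from -0.10 to 0.03 in siBACH1.

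The mu-class enzyme GSTM3 was at 0.128, 0.105 and 0.123 TPM in siControl, sip53 and siBACH1 (chromosome 1, 109733937 to 109741038). Its listed pseudogenes GSTM3P1 and GSTM3P2 were at 0. Mu-class genes resemble each other closely, so the division of reads among them is uncertain. GSTM4 was at 32.1, 34.96 and 27.9 TPM, and GSTM1 and GSTM2 were between 1.43 and 2.50 TPM.

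Of the microsomal enzymes, MGST2, which can also join glutathione to leukotriene A4, was at 56.0 TPM in siControl, 57.6 TPM in sip53 and 53.4 TPM in siBACH1 (chromosome 4, 139665819 to 139754618). The log2 differences from siControl were 0.04 and -0.07. MGST1, a transferase and peroxidase of the endoplasmic reticulum and outer mitochondrial membrane, was at 0.0313, 0.178 and 0.431 TPM (chromosome 12, 16347115 to 16593331). It was under 1 TPM in each library, and with unknown depth these values may rest on very few reads. MGST3, which is not among the members, was at 77.5, 82.0 and 71.9 TPM.

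Taking the measured members as a set, 0 of 7 differed by 1.5-fold or more from siControl in sip53, where 4.42% of 12412 measured genes did. In siBACH1 the count was also 0 of 7, against 5.47% of 12437 genes. Measured means at least 1 TPM in 1 or both libraries, and the fold is taken on TPM + 1. At a lower threshold, a log2 difference of 0.32, 1 member was counted in each knockdown, GPX1 in sip53 (18.6% of all measured genes) and GPX2 in siBACH1 (19.7%). The members' log2 differences ranged from -0.41 to 0.16 in sip53 and from -0.25 to 0.39 in siBACH1. Their median was -0.08 in sip53, against -0.07 over all measured genes, and -0.05 in siBACH1, against -0.08. The siBACH1 median turned to 0.04 when the libraries were rescaled to a median ratio of 1, where the median over all measured genes also rose, to -0.001. Corrected for GC content and length, the medians were 0.09 in sip53 and 0.04 in siBACH1, against 0.00 over all measured genes in both, and 5 of 7 members were positive in each, against 3 of 7 before. As deposited, the members' shares and medians were near those of all genes.

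**Figure D4:**
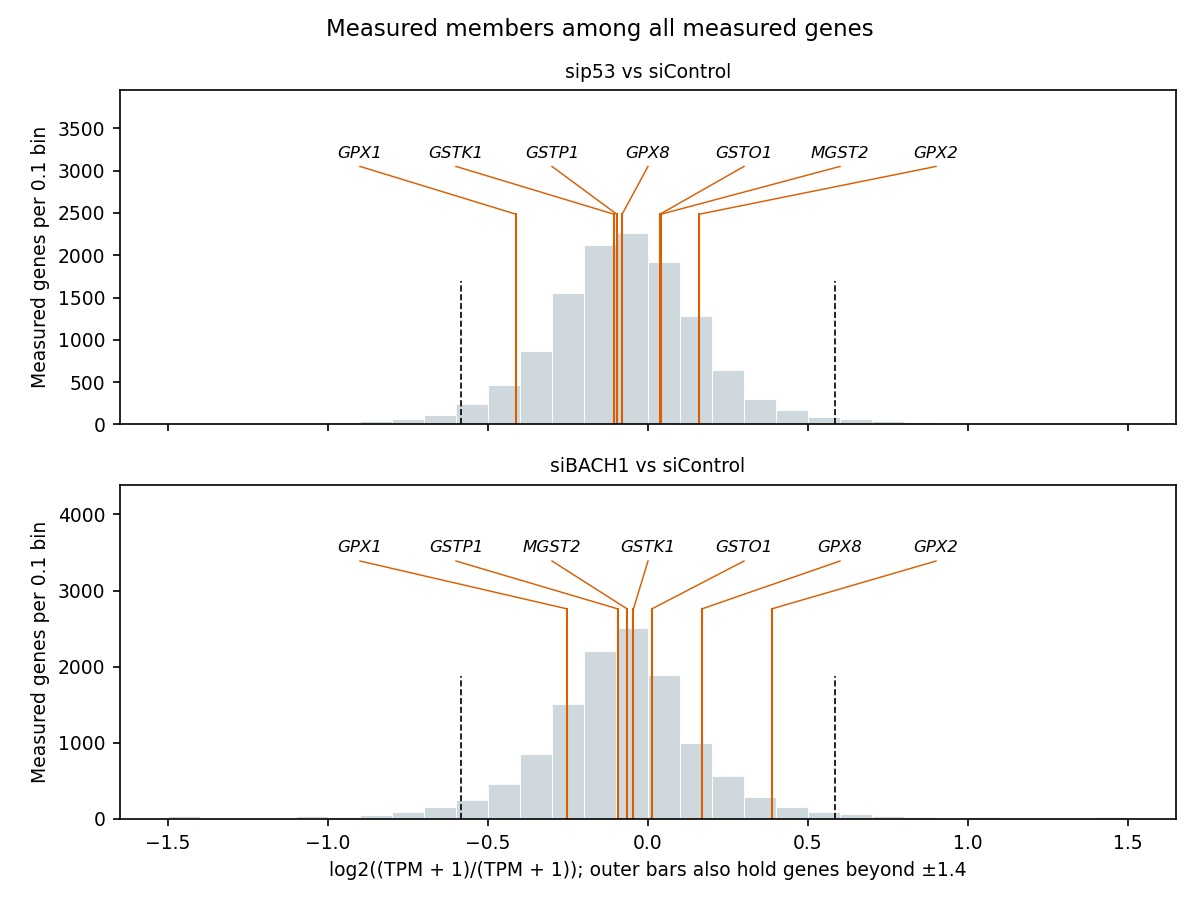
Number of measured genes (y axis) per bin of 0.1 in log2 difference from siControl (x axis), for sip53 (top) and siBACH1 (bottom), with the 7 measured members as vertical lines. Dashed lines mark 1.5-fold. All 7 members lie inside them, with GPX1 at -0.41 in sip53 and GPX2 at 0.39 in siBACH1 farthest out.

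The knockdown libraries were also set against each other, a comparison that does not use the control library. None of the measured members, 0 of 7, differed by 1.5-fold, against 6.02% of 12390 measured genes. The 3 measured peroxidase members were higher in siBACH1 than in sip53, with log2 differences of 0.25 for GPX8, 0.23 for GPX2 and 0.16 for GPX1, whereas GPX4, no member, was at -0.07. Of all measured genes, 30.5% differed at least as much as GPX8, 34.6% as GPX2 and 49.5% as GPX1. The 3 members stayed higher in siBACH1 under the rescaling alternatives and under the correction for GC content and length, which put GPX1 at 0.07. The transferases lay between -0.11 (MGST2) and 0.06 (GSTK1).

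Other GPX and GST genes included larger relative differences, mainly among weakly expressed ones. Of 25 listed, 13 were measured in either comparison with siControl. In sip53 0 of 13 passed 1.5-fold, against 4.42% of all measured genes, and in siBACH1 1 did, against 5.47%. Their medians were -0.04 and -0.06, against -0.07 and -0.08 over all measured genes. GSTT1, a theta-class transferase, was at 5.22 TPM in siControl, 3.25 TPM in sip53 and 2.004 TPM in siBACH1, with log2 differences of -0.55 and -1.05. PTGES, a prostaglandin E synthase of the same membrane superfamily as the MGST enzymes, was at 66.8, 65.5 and 96.1 TPM, with a log2 difference of 0.52 in siBACH1. The omega-class gene GSTO2 was at 1.92, 1.72 and 3.37 TPM (0.58 in siBACH1, just inside 1.5-fold on TPM + 1). GSTZ1, which acts in tyrosine breakdown, was at -0.28 in siBACH1, and the leukotriene C4 synthase LTC4S was at 0.44 in sip53. GSTT2 and GSTT2B are near-identical copies between which reads cannot be divided reliably, and their values are not given.

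Some of the genes that make, recycle or spend glutathione differed by 1.5-fold or more. Of 22 listed, 19 were measured. In siBACH1 2 were at least 1.5-fold higher, GCLM and ME1, and 1 was lower, CHAC1, with a median of 0.02. Of all measured genes, 1.78% were higher and 3.69% lower by that fold. GCLM, the modifier subunit of glutamate-cysteine ligase, was at 117, 101 and 215 TPM in siControl, sip53 and siBACH1. CHAC1, which degrades glutathione, was at 7.77, 7.76 and 0.975 TPM, and ME1, a source of NADPH, at 39.9, 42.3 and 62.5 TPM. OPLAH, which recycles 5-oxoproline, had a log2 difference of -0.57 in siBACH1. In sip53 GGT7, a gamma-glutamyltransferase family gene, was higher (1.54 to 3.002 TPM, 0.66), the exporter ABCC4 was lower (2.39 to 0.941 TPM, -0.81), and the median was -0.08. Of all measured genes, 1.54% were at least 1.5-fold higher in sip53 and 2.88% lower.

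Supply of selenocysteine was examined because GPX1 and GPX2 need it. Of 8 genes for selenocysteine synthesis and insertion, all were measured, and 1 was at least 1.5-fold lower in each knockdown, where 2.88% (sip53) and 3.69% (siBACH1) of all measured genes were. This was PSTK, the kinase that prepares the serine-loaded transfer RNA for conversion to selenocysteine, at 4.28 TPM in siControl, 1.96 TPM in sip53 and 1.26 TPM in siBACH1. Its log2 differences were -0.83 and -1.22, or -0.83 and -1.19 after the GC content and length correction. SEPHS1 was at 75.1, 53.6 and 61.0 TPM, SEPSECS had a log2 difference of -0.23 in siBACH1, and SEPHS2, which makes the selenium donor, one of -0.09. Of 18 other selenoprotein genes, 15 were measured and 0 passed 1.5-fold, against 4.42% of all measured genes in sip53 and 5.47% in siBACH1. The medians of these 15 genes were -0.14 in sip53 and -0.03 in siBACH1. In siBACH1 the thioredoxin reductases TXNRD1 and TXNRD3 were at 0.30 and 0.25, and SELENOK and SELENON at -0.40 and -0.37. In sip53 SELENOW was at -0.43 and SELENON at -0.37. The 15 genes ranged from -0.43 to 0.13 in sip53, beside GPX1 at -0.41 and GPX2 at 0.16, and from -0.40 to 0.30 in siBACH1, beside -0.25 and 0.39.

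None of the remaining measured peroxide-removing and glutathione-dependent genes passed 1.5-fold, against 4.42% of all measured genes in sip53 and 5.47% in siBACH1. Of 10 other peroxide and superoxide enzymes, 9 were measured, with medians of -0.09 in sip53 and 0.05 in siBACH1. The peroxiredoxin PRDX6, which uses glutathione, was at -0.28 in sip53 and PRDX3 at -0.18. In siBACH1 PRDX2 was at -0.11, catalase (CAT) at 0.08, PRDX3 at 0.07 and SOD1 at -0.06. The 7 glutaredoxin and glyoxalase genes had medians of -0.11 and -0.06. In sip53 HAGH was at -0.19 and ESD at -0.13, and in siBACH1 GLRX was at -0.23, HAGH at -0.22, GLRX2 at 0.22 and ESD at -0.16.

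**Figure D5:**
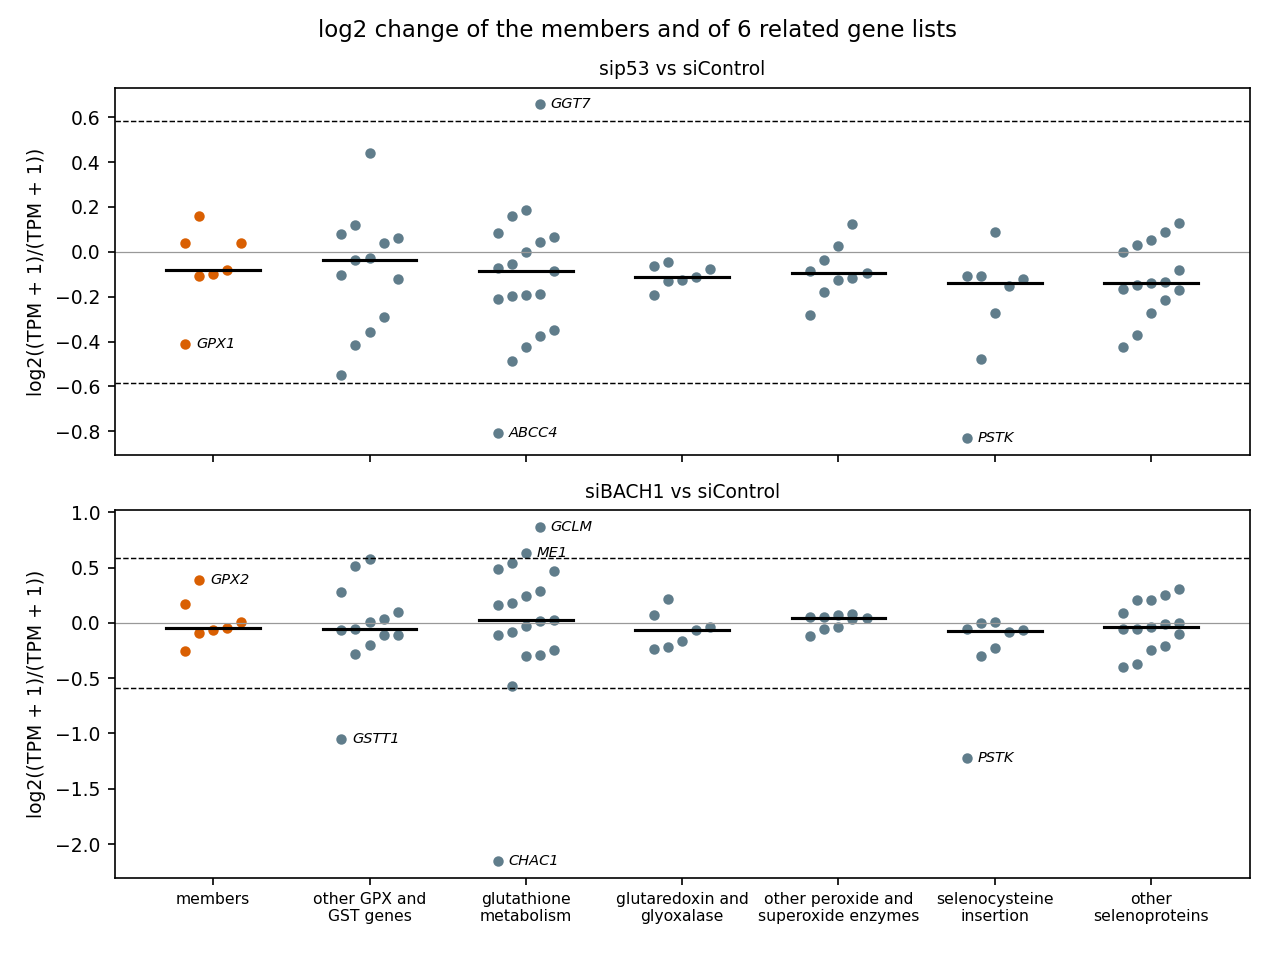
log2 difference from siControl (y axis) of each measured gene, for the members and 6 related gene lists (x axis), in sip53 (top) and siBACH1 (bottom). Bars are medians and dashed lines mark 1.5-fold; genes past it are named, with GPX1 and GPX2 named among the members. CHAC1 at -2.15 and GCLM at 0.87 in siBACH1 lie past the lines, and no member does.

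Genes with a pattern like that of single members were sought among protein-coding genes at 10 TPM or more in all libraries, by Euclidean distance over the log2 differences of both knockdowns. With 3 libraries such likeness is weak. For MGST1, which had the largest log2 difference of any member (0.47 in siBACH1, from levels under 1 TPM), the nearest of 7619 genes were CEP41, BLOC1S5 and CASP6, and 18 genes lay within a distance of 0.1. These neighbours of MGST1 rest on the added 1 TPM. With 0.1 TPM added, MGST1 was at 1.08 in sip53 and 2.02 in siBACH1, so no likeness in plain ratios is meant. For GPX2, added after its values were seen, the nearest genes were GTPBP10, CLDN7 and TAF4, with 45 genes within 0.1. For GPX1, added likewise, they were TSC22D4, MRPL4 and VWA1, with 213 genes within 0.1.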

How the data were processed

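Per the labels' protocols, RNA from Cal-33 cells was extracted with a column kit and made into libraries with a SMARTER mRNA kit. The authors deposited 1 table of TPM for 28890 gene symbols in which each library is a column. Tools named in the submitters' processing notes are bcl2fastq 2.20 and kallisto 0.44.0, a pseudoaligner that divides reads among similar transcripts, and the notes list GRCh38 beside mouse builds without a role. For transcript annotation, summing to genes and strand handling, the sources used here give nothing. Listed values summed to 978371 to 979148 per library.

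A difference between libraries is log2((TPM + 1)/(TPM + 1)); the added 1 TPM understates differences of weakly expressed genes. Percentages and folds given with TPM are plain ratios. Genes at 1 TPM or more in 1 or both libraries counted as measured. Transcript GC content and length are means over GENCODE 29 transcripts (97.8% of measured genes matched); the correction used lowess (statsmodels 0.14.6, fraction 0.3) and was tested on simulated data. Promoters are from RefSeq (GRCh38.p14). The members, gene lists and alternatives were chosen with earlier results of these data known. All members are named; each related list names up to 4 measured genes with the largest absolute difference in siBACH1 and up to 2 in sip53, and others named were chosen after their values were seen. The level of the p53 transcript is not reported here.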

Additional observations from a re-analysis of the deposited data

How the results depend on the processing

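With no filter and 1 TPM added, 0 of 10 members passed 1.5-fold in any of the 3 comparisons. The other alternatives counted only the 7 measured members. Their count past 1.5-fold remained 0 under a pseudocount of 0.1 or 5 TPM, rescaling to a median ratio of 1 and a minimum of 5 TPM. It was also 0 after removal of 13 mitochondrially encoded and 87 ribosomal protein genes, and at a 2-fold threshold. The GC content and length correction, added after seeing the data, likewise left it at 0. At a log2 difference of 0.32 it was 1 in sip53, 1 in siBACH1 and 0 between the knockdowns. The members' median moved by 0.1 or more only in sip53 after the GC content and length correction, from -0.081 to 0.092. GPX1 and GPX2 kept their signs against siControl under every alternative run, with GPX1 between -0.42 and -0.17 in sip53 and between -0.26 and -0.10 in siBACH1, and GPX2 between 0.16 and 0.30 and between 0.38 and 0.47. GSTK1 turned from -0.05 to 0.04 in siBACH1 after the correction and after rescaling, and MGST2 from -0.07 to 0.02 after rescaling. Without mitochondrially encoded and ribosomal protein genes these were at 0.03 and 0.01. After the correction GSTK1 also turned in sip53, from -0.11 to 0.01. GSTP1 did so in sip53 (-0.10 to 0.13), in siBACH1 (-0.10 to 0.03) and between the knockdowns (0.002 to -0.09). GSTM3, under 1 TPM, turned from -0.006 to 0.004 in siBACH1 after rescaling and after that removal of genes. MGST1 in siBACH1 ranged from 0.11 to 2.02 with the pseudocount. Being under 1 TPM, MGST1 was outside the count of measured members. With a pseudocount of 0.1 TPM it was past 1.5-fold in each comparison, at 1.08 in sip53, 2.02 in siBACH1 and 0.94 between the knockdowns. Without mitochondrially encoded and ribosomal protein genes it was at 0.71 in siBACH1. No paired analysis was possible because each group holds 1 library. Depth limits are unknown, since TPM keeps no read number.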
